A study of Mus musculus with 199 samples.

Results

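Immediate early genes are switched on within minutes of a growth factor, a stress or tissue handling, without new protein synthesis. Signals run through mitogen-activated protein kinases to transcription factors already bound at their promoters, and most of their transcripts are degraded soon after they are made. The 10 genes described here were taken by symbol from a table of 31581 mouse genes, and they fall into 4 kinds by role. Fos, Fosb, Jun, Junb and Jund code for subunits of the dimeric transcription factor AP-1. Egr1 and Klf6 code for zinc-finger transcription factors. Ier2 and Ier3 are early response genes whose proteins act in the nucleus and in cell survival. Dusp1 codes for a phosphatase that switches the kinases off again. Small-cell lung cancer is a neuroendocrine tumour, and Jun and Fos are known in it mainly from lines that have lost neuroendocrine features.

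The series holds 199 RNA-seq libraries from mouse tumour and pre-cancer cells of the small-cell type, most of them laser-captured groups of 10 cells. The KP1 tumour line (Rb1-/-Trp53-/-) was grown as spheroids, as liver colonies in immunocompromised nude mice, which lack mature T cells, and as liver colonies in immunocompetent F1 mice. The RPC line, explanted pre-cancer cells of genotype Rb1-/-Trp53-/-p130-/+Crebbp-/-, was grown as spheroids, so deletion of Rb1 and Trp53 is shared by every group. For each KP1 setting, pool-and-split controls were made at the same 10-cell size from pooled material, and they hold the spread of the method. Captures and pools numbered 28 and 20 for spheroids, 33 and 35 for nude livers, and 31 and 24 for F1 livers, with 24 RPC captures. Bulk spheroids of 4 lines gave 1 library each by another protocol: KP1, KP2 (with Ptch1+/lacz), KP3 (with Axin2+/lacz) and KP5 (with BAT-GAL), all on Rb1-/-Trp53-/-. Ages, and the numbers of animals, cultures and pools, are not given in the labels, so p-values speak for the spread between captures and not for animals. Pools are splits of mixed material, so p-values of pool comparisons are set against the spread of the method and may be too small for a difference between settings.

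The 10-cell libraries held 1007999 to 7616756 counts and the bulk libraries 17266203 to 42447973. The neuroendocrine marker list was present in every group, with a median summed level of 1940 CPM in spheroid (639 to 2583), 1309 in nude liver (36.2 to 2388) and 1577 in F1 liver captures (633 to 4767), and of 2241, 1103 and 1497 CPM in the pools, where Scg2 was at 0 in F1 livers (counts scaled to a common library total, computed over genes without the ERCC spike-in transcripts). The liver libraries also held host RNA: the median summed level of 10 hepatocyte markers was 677 CPM in nude liver captures and 156 CPM in F1 liver captures, against 0.739 CPM in spheroid captures, where 7 of the 10 were at 0. Erythrocyte markers (5 genes) had the other order between the livers, with a median summed level of 1622 CPM in F1 (0 to 32920) and 551 CPM in nude liver captures (0.593 to 3743), against 0 in spheroid captures (0 to 31.3), where Hbb-bt and Alas2 were at 0. In the pools it was 1259 CPM in nude and 334 CPM in F1 livers. The 10 endothelial and stellate markers had medians of 31.7 CPM in nude and 10.4 CPM in F1 liver captures, against 0.236 CPM in spheroid captures. The 8 macrophage markers had medians of 6.22 to 39.3 CPM in the liver groups and 11.0 to 17.6 in culture, with maxima of 1608 CPM in F1 liver pools and 159 CPM in culture, and the 6 T and NK cell markers had medians under 1 CPM in every group. The part of lower tumour marker levels and of host RNA in the liver comparisons was not tested. Fits with the hepatocyte score cannot separate host RNA from setting against spheroid captures, where 7 of the 10 markers were at 0. The other host markers were not in the score. Spike-in reads were a larger share of the liver libraries, with a median of 0.969% in nude and 2.16% in F1 liver captures, 5.94% and 13.2% in the pools, and 0.00465% and 0.00265% in spheroid captures and pools. A low value can reflect lower expression of a gene, a smaller share of tumour RNA or loss of transcripts at low input. These cannot be told apart in these libraries. At 10 cells a library, counts of a rare transcript come and go, and libraries with counts are therefore given beside every level.

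RefSeq promoter windows on GRCm38.p6 (250 bases before to 50 after the gene's start) were at hand for 8 of the 10 genes. The upstream bases of 4 genes that held a motif match are shown. They are Jun, Klf6 and Dusp1, with measurable levels in culture, and Fos, the family member that was hardly seen. Each ends where the deposited table's gene begins. Jun lies on the minus strand at chr4:95052223-95052472, Klf6 on the plus strand at chr13:5861239-5861481, Dusp1 on the minus strand at chr17:26508520-26508722 and Fos on the plus strand at chr12:85473640-85473889. Capitals mark the motif matches described after them.
Jun: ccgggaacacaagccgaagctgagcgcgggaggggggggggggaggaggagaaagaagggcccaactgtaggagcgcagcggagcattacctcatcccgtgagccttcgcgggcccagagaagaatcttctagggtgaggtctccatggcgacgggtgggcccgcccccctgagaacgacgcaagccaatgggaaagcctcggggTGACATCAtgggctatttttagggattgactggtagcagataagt
Klf6: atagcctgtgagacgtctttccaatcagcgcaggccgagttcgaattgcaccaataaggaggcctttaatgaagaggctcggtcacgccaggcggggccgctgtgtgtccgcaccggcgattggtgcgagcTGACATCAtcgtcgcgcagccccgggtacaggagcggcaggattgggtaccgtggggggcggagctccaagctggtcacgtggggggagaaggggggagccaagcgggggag
Dusp1: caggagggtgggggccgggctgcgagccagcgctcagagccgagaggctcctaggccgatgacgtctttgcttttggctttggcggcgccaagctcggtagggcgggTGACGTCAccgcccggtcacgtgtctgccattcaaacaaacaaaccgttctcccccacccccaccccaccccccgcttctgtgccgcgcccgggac
Fos: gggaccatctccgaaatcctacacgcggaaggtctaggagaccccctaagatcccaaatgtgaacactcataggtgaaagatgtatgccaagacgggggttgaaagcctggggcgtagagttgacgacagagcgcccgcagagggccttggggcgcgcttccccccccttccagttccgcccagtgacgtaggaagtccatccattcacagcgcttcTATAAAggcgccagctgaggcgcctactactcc

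The search took 5 motifs on both strands: TGACGTCA (the cAMP response element), TGAGTCA (the AP-1 element), GCGTGGGCG (the Egr element), TATAAA (the TATA box) and the CArG box bound by serum response factor. Dusp1 held TGACGTCA at 143 to 136 bases before its RefSeq start, a motif present in 1.79% of 32851 windows of the same length. Fos held TATAAA at 33 to 28 bases before its start, as did 13.6% of windows. Jun and Klf6 held none of the 5. A sixth motif, TGACATCA, the variant AP-1 and ATF element known from the Jun promoter, was added after the sequences had been seen. It lay 45 to 38 bases before the start of Jun and 119 to 112 bases before that of Klf6, and 3.62% of windows hold it. TGACATCA overlaps none of the other matches. Among the windows not shown, Junb held TATAAA at bases 1 to 6 from its start, and Fosb, Jund and Ier3 held no match. The Jund window ends at chr8:70697788, before the deposited table's gene start at 70698949. These matches describe letters and were not linked to any level below.

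The genes split sharply by how often they were seen in 10 cells. Jund had counts in 113 of 116 captures (97.4%, exact 95% interval 92.6 to 99.5%), Dusp1 in 100 (86.2%, 78.6 to 91.9%) and Jun in 93 (80.2%, 71.7 to 87.0%). Klf6 and Ier2 were intermediate, with counts in 61 and 56 captures. Junb and Ier3 had counts in 15 captures each, Fos in 9 and Egr1 in 5. Fosb had none in 116 captures (exact 95% interval 0 to 3.13%). A limit set at 3 of 116, a rule for the upper side alone, is 2.59%. A capture held counts of between 0 and 8 of the 10 genes. Intervals cover the counting of captures only, taken as independent over the 4 groups. The order of the first 3 genes depends on depth. With counts thinned to equal depth, Jund had counts in 21 of 28 spheroid, 21 of 33 nude liver, 26 of 31 F1 liver and 15 of 24 RPC captures. Jun then had them in 26, 16, 23 and 24, and Dusp1 in 22, 17, 17 and 23, so Jund led in the liver captures only.

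**Figure D1:**
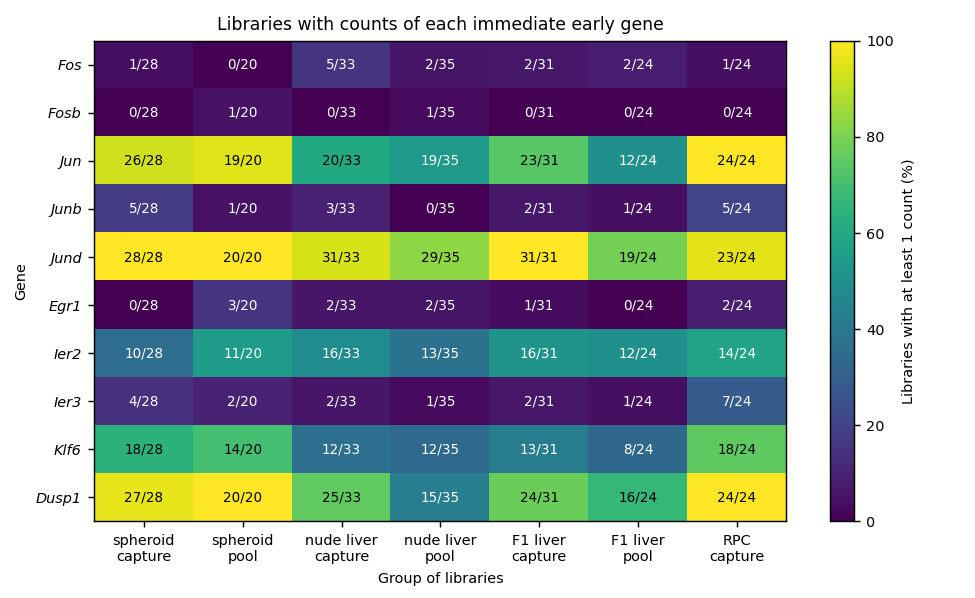
Share of libraries with at least 1 count (colour, in percent) and the number of libraries over the group size (text) for each of the 10 genes (rows) in the 7 groups of 10-cell libraries (columns). Jun, Jund and Dusp1 have counts in most libraries, with Jun down from 26 of 28 spheroid captures to 20 of 33 nude liver captures, and Fos, Fosb, Junb, Egr1 and Ier3 have counts in few.

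Among the AP-1 subunits, Fos was rarely seen in captures. It had counts in 1 of 28 spheroid, 5 of 33 nude liver, 2 of 31 F1 liver and 1 of 24 RPC captures, and in 0 of 20, 2 of 35 and 2 of 24 of the matching pools. Its highest value was 5.32 CPM, in nude liver capture 13, from 19 counts. No group had a median above 0, and the groups overlapped at 0. Fosb, its close paralog, had counts in only 2 of 79 pools: 12.4 CPM in nude liver pool 5 and 1 count in spheroid pool 2. Junb had counts in 5 of 28 spheroid, 3 of 33 nude liver, 2 of 31 F1 liver and 5 of 24 RPC captures, at most 5.51 CPM (spheroid capture 4). Its annotated end overlaps Prdx2 on the other strand, which had counts in 195 libraries, and reads in the overlap cannot be told apart where strand use in counting is not given.

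Jun was the AP-1 subunit called lower in nude liver captures than in spheroid captures; its other liver comparisons were not called. Spheroid captures ran from 0 to 115 CPM with a median of 21.5, and 26 of 28 had counts. Nude liver captures ran from 0 to 72.8 CPM with a median of 1.33, and 20 of 33 had counts. F1 liver captures ran from 0 to 66.6 CPM with a median of 1.60, and 23 of 31 had counts. Most liver captures were thus below the middle spheroid capture, and the ranges overlapped at both ends. Among genes with a mean of 5 to 50 CPM in the group, the median gene had counts in 89.3% of spheroid, 81.8% of nude liver (quartiles 63.6 and 93.9%) and 77.4% of F1 liver captures (quartiles 58.1 and 90.3%), beside 92.9%, 60.6% and 74.2% for Jun. The share for Jun was thus below the lower quartile in nude livers and near the median gene in F1 livers. RPC captures were the only group with Jun counts in every library, from 6.74 to 203 CPM with a median of 46.1. In the pools the medians were 18.7 CPM in spheroids (0 to 199.996), 0.375 in nude livers (0 to 134) and 0.157 in F1 livers (0 to 61.3), again highest in spheroids. Ordered by mean level, Jun stood at 58.5 ± 48.3 CPM in RPC captures (SD, n = 24), 42.7 ± 52.0 in spheroid pools (n = 20), 27.8 ± 26.5 in spheroid captures (n = 28), 9.64 ± 17.3 in nude liver captures (n = 33), 9.41 ± 17.1 in F1 liver captures (n = 31), 7.72 ± 23.9 in nude liver pools (n = 35) and 6.09 ± 13.7 in F1 liver pools (n = 24). Each step between neighbours in that order was smaller than the SD of the higher group.

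Jun fell in nude liver captures against spheroid captures, by 1.80 on the log2 scale (SE 0.66, adjusted p = 0.0276, edgeR quasi-likelihood test with Benjamini-Hochberg adjustment over 7834 genes). It was the 1 gene called among the 3 of the 10 that passed the filter on low counts, and 34.1% of all genes tested were called in that comparison, 16.3% as lower. The call was lost without spheroid capture 28, the highest library (-1.61, adjusted p = 0.0522), and Jun fell by 1.61 to 1.82 when each spheroid capture was left out in turn. Spheroid captures came in 2 sets by spike-in share, and Jun was lower in nude livers against each set alone: -1.66 (adjusted p = 0.229) against the 9 captures with at least 0.1% and -1.86 (adjusted p = 0.0528) against the 19 below it. With the hepatocyte marker score as a covariate the estimate was -3.69 (SE 1.73, adjusted p = 0.151). The score itself follows the setting, so this fit cannot separate the 2. Within nude liver captures, Jun had a Spearman correlation of -0.42 with spike-in share and 0.42 with the number of genes detected (n = 33 libraries, which also differ in depth). The part of these in the result was not tested.

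The other comparisons of Jun did not pass the threshold. F1 liver against spheroid captures gave -1.12 (SE 0.66, adjusted p = 0.272, edgeR), where 12.6% of 7309 genes were called. In the pools, a separate set of libraries, nude against spheroid gave -2.09 (SE 0.82, adjusted p = 0.0508) and F1 against spheroid gave -2.36 (SE 0.89, adjusted p = 0.0715), with 25.6% and 11.6% of genes called. Both pool differences were called by DESeq2 (-2.42, adjusted p = 0.01004, and -2.62, adjusted p = 0.0101). The medians over all genes were -0.32 and -0.13 in those fits, beside 0.16 and 0.46 in edgeR. Jun was estimated lower in liver than in spheroids in these 4 comparisons, 1 of them called. The 4 are not independent, since both capture comparisons share the spheroid captures and both pool comparisons the spheroid pools. F1 against nude liver captures gave 0.70 (SE 0.73, adjusted p = 0.546), opposite in sign to the difference of the mean CPM (9.41 and 9.64). RPC against KP1 spheroid captures gave 0.79 (SE 0.44, adjusted p = 0.199; 95% interval -0.07 to 1.65), with 19.2% and 21.9% of genes called. DESeq2 called Jun higher in RPC (0.98, adjusted p = 0.0454), as did limma-voom (1.42, adjusted p = 0.0153). The medians over all genes were 0.19 and 0.44 in these fits, beside 0.01 in edgeR.

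**Figure D2:**
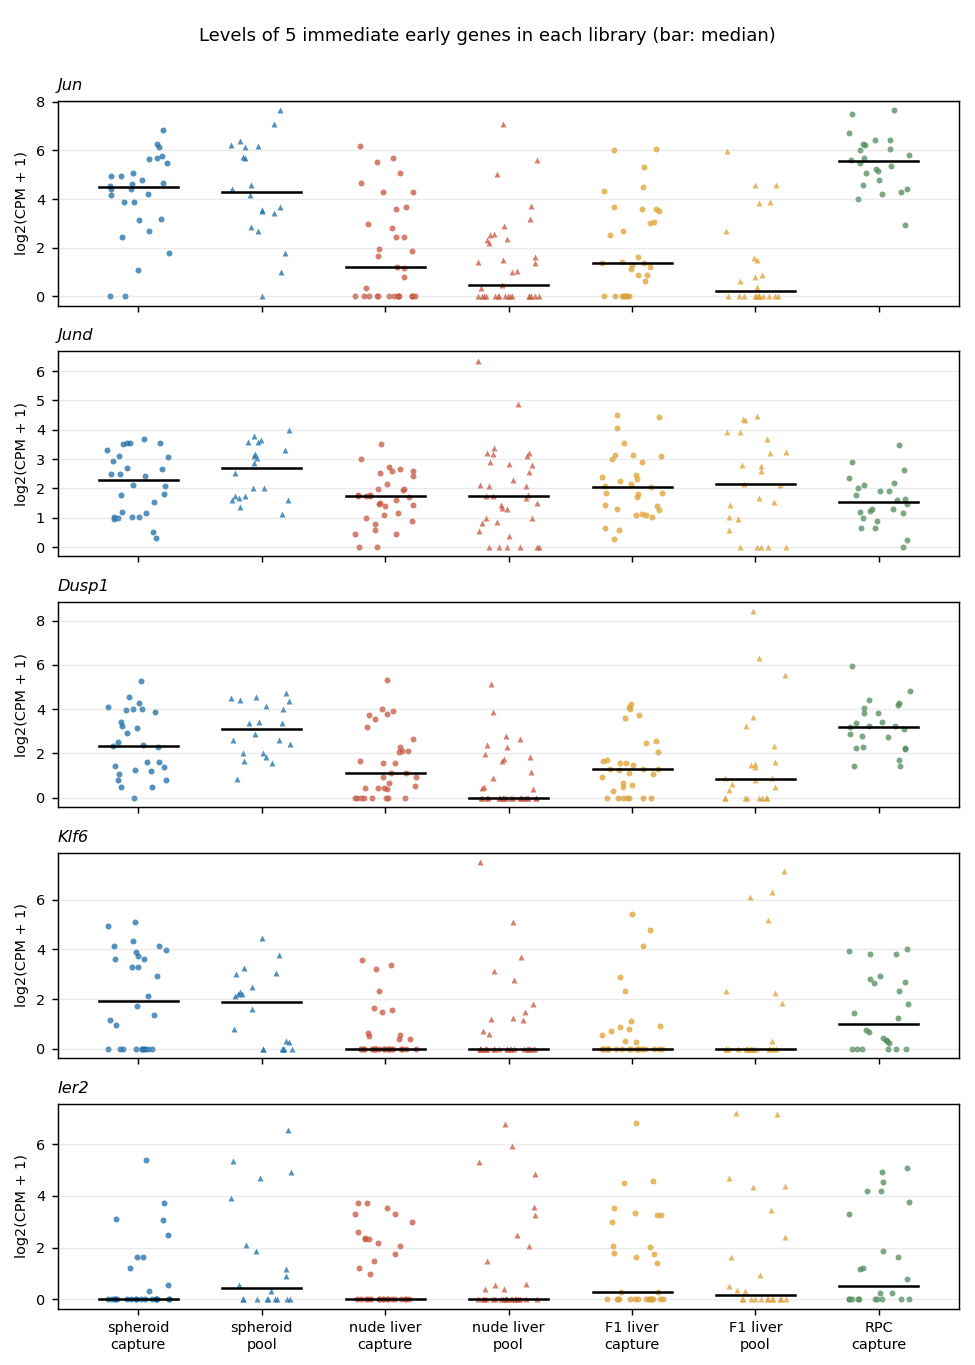
Level of 5 genes, as log2(CPM + 1), in each library of the 7 groups (circles are captures, triangles pool-and-split controls, the bar is the group's median). Jun shows medians near 21.5 CPM in spheroid captures and under 2 CPM in the liver groups, with high libraries in every group; Jund varies less, and Klf6 and Ier2 sit at 0 in many libraries with isolated high values.

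Jund, a subunit known for steady expression that often restrains growth, had counts in the most captures at full depth. Spheroid captures ran from 0.235 to 11.8 CPM with a median of 3.87. Nude liver captures ran from 0 to 10.4 CPM with a median of 2.31, and F1 liver captures from 0.215 to 21.9 CPM with a median of 3.12. RPC captures ran from 0 to 10.2 CPM with a median of 1.87. All 4 ranges overlapped. Jund rose in F1 against nude liver captures, by 1.27 on the log2 scale (SE 0.39, adjusted p = 0.0145, edgeR), where the median over all 7064 genes tested was 0.26 and 11.2% of them were called higher. It stayed called in each of 31 fits that left out 1 F1 liver capture (1.08 to 1.32, adjusted p 0.0110 to 0.0377). It was not called by limma-voom (0.96, adjusted p = 0.0822), nor with the 6 F1 captures that had at most 200 CPM of Rpl19-ps11, a ribosomal pseudogene that splits the F1 libraries (1.79, adjusted p = 0.125), and was called with the 25 above it (1.16, adjusted p = 0.0362). Of 33 nude liver captures, 1 was above that level, so host and this split largely go together.

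In pools the difference of Jund between the livers was not called. Nude liver pools ran from 0 to 80.8 CPM with a median of 2.30, F1 liver pools from 0 to 21.1 CPM with a median of 3.43, and spheroid pools from 1.20 to 14.7 CPM with a median of 5.55. F1 against nude liver pools gave 0.23 (SE 0.60, 95% interval -0.96 to 1.41, adjusted p = 0.845, edgeR), and 12% of 6010 genes were called. Nude pool 37 held the 80.8 CPM: nude against spheroid pools gave 0.32 (SE 0.59, adjusted p = 0.743) with it and -0.33 (adjusted p = 0.681) without it. F1 against nude liver pools likewise went from 0.23 to 0.96 (SE 0.55, adjusted p = 0.249) without that library. The fitted 0.32 is opposite in sign to the difference of the mean CPM (5.92 in nude liver and 6.19 in spheroid pools). In captures, Jund was -0.88 in nude livers (SE 0.39, adjusted p = 0.0708), 0.37 in F1 livers (SE 0.42, adjusted p = 0.618) and -1.13 in RPC (SE 0.44, adjusted p = 0.0569) against KP1 spheroids, none of them called. The antisense gene Gm11175 that overlaps Jund had counts in 3 libraries.

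**Figure D3:**
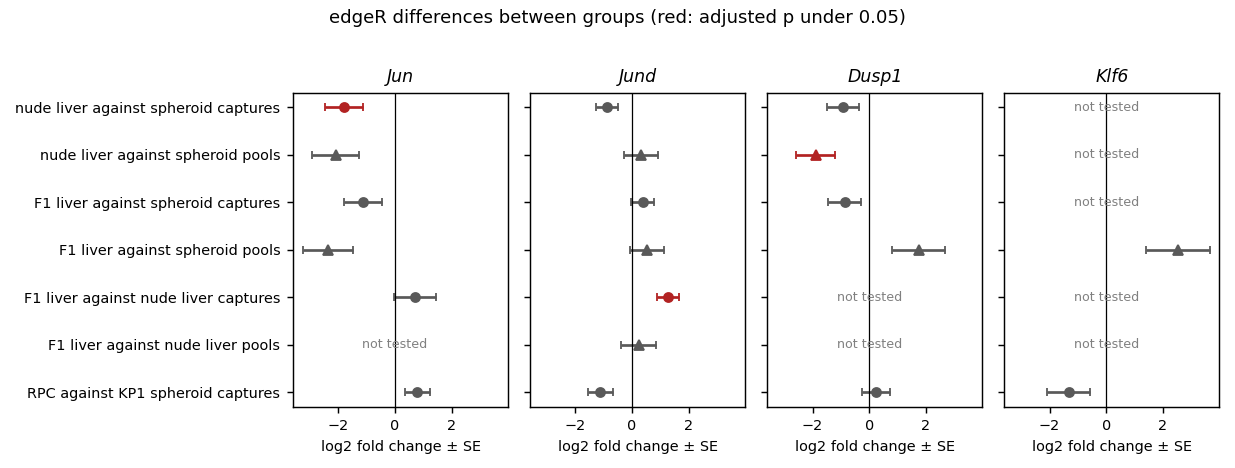
edgeR log2 fold change with its SE for Jun, Jund, Dusp1 and Klf6 (panels) in the 7 comparisons (rows; circles captures, triangles pools); red marks an adjusted p under 0.05 and genes below the filter on low counts are written as not tested. The 3 red points are Jun at -1.80 in nude liver against spheroid captures, Dusp1 at -1.88 in the same contrast of pools and Jund at 1.27 in F1 against nude liver captures.

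Of the zinc-finger factors, Egr1 had counts in 0 of 28 spheroid, 2 of 33 nude liver, 1 of 31 F1 liver and 2 of 24 RPC captures, and in 3 of 20 spheroid, 2 of 35 nude liver and 0 of 24 F1 liver pools. Where it appeared it could be high: 23.1 CPM in nude liver capture 20, 19.1 CPM in F1 liver capture 19, 15.1 CPM in spheroid pool 5 and 123 CPM in nude liver pool 31, each from 57 counts or more. Among nude liver captures and pools, 1 other library each had counts, and no other F1 liver capture did. Egr1 did not pass the filter on low counts in any comparison.

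Klf6, which represses growth in several epithelia, had a median of 2.82 CPM in spheroid captures (0 to 33.1), 0 in nude liver captures (0 to 10.9), 0 in F1 liver captures (0 to 41.7) and 1.02 in RPC captures (0 to 15.0). It had counts in 18 of 28, 12 of 33, 13 of 31 and 18 of 24 of these. Libraries with counts were thus more frequent in culture than in liver, a difference that was not tested, and the spike-in share was higher in liver. In the pools it had counts in 14 of 20 spheroid, 12 of 35 nude liver and 8 of 24 F1 liver libraries, with maxima of 21.1, 183 and 142 CPM. Klf6 passed the filter on low counts in 2 of the 7 comparisons. RPC against KP1 gave -1.33 (SE 0.75, adjusted p = 0.208, edgeR) and F1 against spheroid pools gave 2.53 (SE 1.12, adjusted p = 0.135). Without F1 pool 7, its highest library, Klf6 no longer passed the filter.

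Ier2, a nuclear protein induced by growth factors, had counts in 10 of 28 spheroid, 16 of 33 nude liver, 16 of 31 F1 liver and 14 of 24 RPC captures. The medians were 0, 0, 0.225 and 0.459 CPM, and the highest libraries reached 41.0, 12.3, 112 and 33.0 CPM. The 3 highest libraries carried 77.0% of the summed CPM of Ier2 in spheroid, 38.8% in nude liver, 72.6% in F1 liver and 56.7% in RPC captures. In pools they carried 77.1% in spheroids, 78.0% in nude livers and 84.6% in F1 livers. It did not pass the filter on low counts in any comparison of levels. Ier3, a regulator of cell death and survival, had counts in 4 of 28, 2 of 33, 2 of 31 and 7 of 24 captures, with maxima of 1.47, 18.2, 0.449 and 3.26 CPM. Its highest value of all was 57.4 CPM in F1 liver pool 1, the only 1 of 24 such pools with counts.

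Dusp1 had counts in a larger share of libraries from culture than from liver, a difference that was not tested and that other genes also showed. Spheroid captures ran from 0 to 37.3 CPM with a median of 4.14 (27 of 28 with counts), nude liver captures from 0 to 38.5 CPM with a median of 1.15 (25 of 33) and F1 liver captures from 0 to 18.0 CPM with a median of 1.45 (24 of 31). RPC captures ran from 1.69 to 61.7 CPM with a median of 8.25, all 24 with counts. The ranges overlapped. In pools the split was wider: 0.825 to 25.9 CPM with a median of 7.84 in spheroids (20 of 20), 0 to 34.5 CPM with a median of 0 in nude livers (15 of 35) and 0 to 339 CPM with a median of 0.790 in F1 livers (16 of 24). A median at 0 in nude liver pools means that most of them had no Dusp1 count at all, while every spheroid pool did. Among genes with a mean of 5 to 50 CPM in the group, the median gene had counts in 89.3% of spheroid, 81.8% of nude liver and 77.4% of F1 liver captures, beside 96.4%, 75.8% and 77.4% for Dusp1. In pools the median gene had counts in 90%, 65.7% and 58.3%, beside 100%, 42.9% and 66.7% for Dusp1, so its share in F1 livers was at or above that of the median gene. The mean of Dusp1 was under 5 CPM in nude liver captures (4.36) and pools (2.30) and in F1 liver captures (3.44), so it is outside those genes there.

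Dusp1 fell in nude liver against spheroid pools, measured against the spread between splits, by 1.88 on the log2 scale (SE 0.69, adjusted p = 0.0353, edgeR), the 1 gene called among the 3 of the 10 tested there, where 9.13% of 8010 genes were called lower. The call was lost without spheroid pool 17 (-1.74, adjusted p = 0.0588) or spheroid pool 19 (-1.79, adjusted p = 0.0506), and without libraries of over 10% spike-in reads (-1.75, adjusted p = 0.0529). Against the 6 spheroid pools with at least 0.1% spike-in reads it was -1.02 (adjusted p = 0.707), and against the 14 below it -2.12 (adjusted p = 0.0457). In captures Dusp1 was -0.93 in nude livers (SE 0.58, adjusted p = 0.215) and -0.86 in F1 livers (SE 0.58, adjusted p = 0.349), neither called. F1 against spheroid pools had the other sign, 1.74 (SE 0.93, adjusted p = 0.223), and rested on F1 pool 7: without it the value was 0.10 (adjusted p = 0.954). limma-voom called the same comparison lower (-1.83, adjusted p = 0.0499), so its direction depends on the test. The median over all genes was -1.45 in that fit and 0.46 in edgeR, so the shift was not particular to Dusp1. RPC against KP1 spheroid captures gave 0.23 (SE 0.49, 95% interval -0.72 to 1.19, adjusted p = 0.781).

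Whether groups of 10 cells differed among themselves more than the method does was asked by comparing captures with pools in how far each library's log2(CPM + 1) lay from its group's median (limma). Of the 5 genes tested in spheroids, 2 in nude livers (Jun and Ier2) and 5 in F1 livers, 0 were called, and 1 (Jund in F1 livers) had an unadjusted p under 0.05. The others did not reach the mean of 5 CPM needed for the test. In spheroids Klf6 had the largest excess in captures (0.41, SE 0.22, adjusted p = 0.853); 0% of 8602 genes were called there. Jun spread less in spheroid captures than in spheroid pools (-0.40, SE 0.35, adjusted p = 0.907) and more in nude liver captures than in nude liver pools (0.39, SE 0.34, adjusted p = 0.643), where 0.777% of genes were called. In F1 livers Jund was less spread in captures than pools (-0.48, SE 0.24, unadjusted p from limma 0.0480, adjusted p = 0.275), and 1.48% of genes were called. The difference in excess spread between liver and spheroids passed for 0 of the 4 genes tested in nude livers and 0 of the 5 in F1 livers, where 0% and 0.504% of all genes did. Within spheroid pools alone, Jun ran from 0 to 199.996 CPM, wider than its range of 0 to 115 CPM in spheroid captures.

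No pair of the genes varied together past the threshold from library to library. Pairs were correlated within a group when both genes had counts in at least 50% of its libraries, which left 42 pairs over the 7 groups. Spearman's rho ran from -0.23 to 0.58 with a median of 0.12, and 30 of the 42 were positive. None of the 42 passed Benjamini-Hochberg adjustment (smallest adjusted p = 0.270 for rho and 0.190 for Pearson's r, permutation tests), and 6 had an unadjusted permutation p under 0.05. In captures of KP1, Jun and Dusp1 had rho -0.21 in spheroids (n = 28), 0.02 in nude livers (n = 33) and 0.09 in F1 livers (n = 31). The medians over pairs were 0.02, 0.02 and -0.04 in these 3 groups and 0.26 in RPC captures, against medians of 0.09, 0.08, 0.07 and 0.13 over all pairs of genes seen as often. With counts thinned to equal depth, the medians in spheroid and nude liver captures were -0.088 and -0.16, and with depth held constant 0.10 and -0.061, so their sign is not settled. In spheroid, nude liver and F1 liver pools the medians were 0.16, 0.27 (1 pair) and 0.23, against 0.06, 0.03 and 0.09 over all pairs.

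The highest correlations came from pools, where the cells were mixed before they were split. Jun and Jund in spheroid pools had rho 0.58 (permutation p = 0.00819) and r 0.61 (permutation p = 0.00452) over 20 libraries, with r 0.83 without the 2 libraries farthest from the Jun median. It was 0.66 in the 6 pools with at least 0.1% spike-in reads and 0.45 in the other 14. Jun and Ier2 in F1 liver pools had rho 0.48 and r 0.47 (n = 24, permutation p 0.0182 and 0.0178), and r was 0.47 without the 2 farthest. Ier2 and Dusp1 in spheroid pools had rho 0.48 and r 0.49 (n = 20, permutation p 0.0322 and 0.0302), and r was 0.29 without the 2 farthest. In RPC captures Ier2 and Dusp1 had rho 0.41 and r 0.41 (n = 24, permutation p 0.0499 and 0.0467). Members of these pairs, other than Dusp1 in spheroid pools, also correlated with the number of genes detected, which all genes of a library share. Its rho was 0.36 with Jun, 0.61 with Jund, 0.32 with Ier2 and 0.08 with Dusp1 in spheroid pools, 0.68 with Jun and 0.36 with Ier2 in F1 pools, and 0.70 with Ier2 and 0.40 with Dusp1 in RPC captures. Its part in these correlations was not tested.

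**Figure D4:**
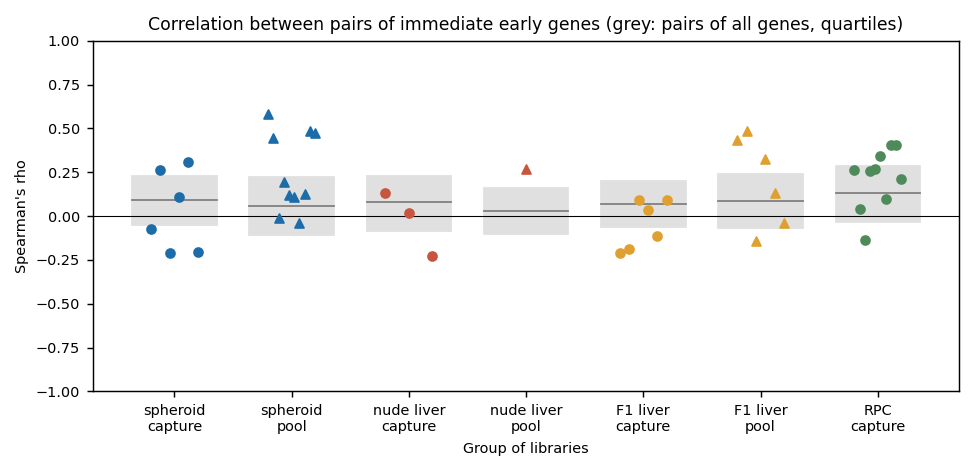
Spearman's rho of log2(CPM + 1) between pairs of the 10 genes (points, circles for captures and triangles for pools) within each group; the grey box spans the quartiles over all pairs of genes with counts in at least 50% of the libraries, with its median as a line. Points lie between -0.23 and 0.58, many within the grey boxes, and the highest is Jun with Jund in spheroid pools.

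The highest values of the genes mostly lay in different libraries. In spheroid captures 8 genes had counts and their highest values lay in 8 different libraries, and in nude liver captures 9 genes had theirs in 9. In F1 liver captures 9 genes had theirs in 8, where capture 24 held the highest Ier2 and Dusp1. RPC captures also had 9 genes in 8, where capture 21 held the highest Jund and Ier2. Some highest values were near the floor, such as 0.705 CPM for Junb in nude liver captures. A single capture rarely held several high genes: 3 of 28 spheroid, 1 of 33 nude liver, 1 of 31 F1 liver and 4 of 24 RPC captures had 3 or more of the 10 over 10 CPM. Captures with none over 10 CPM numbered 4, 15, 11 and 1 in the same order. Among pools, spheroid pool 17 held the highest Jun, Ier2 and Dusp1, and F1 pool 7 the highest Klf6 and Dusp1. Spheroid pool 6 held the highest Ier3 and Klf6, and nude liver pool 37 the highest Jund and Ier3. The same counts were not made for other genes, so whether these genes share libraries less often than others was not tested.

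By the rule for likeness, only Jun had a mean of at least 5 CPM in all 4 groups of captures. The 3 genes whose within-group Spearman correlation with Jun had the highest mean over those 4 groups (116 captures, 6521 genes compared) were Prpf8 (0.42), Rprd1a (0.38) and Rsl1d1 (0.38), against a median of 0.08 over all compared genes. In single groups the value ran from 0.34 to 0.56 for Prpf8 and from 0.10 to 0.64 for Rsl1d1. The 3 were picked as the highest of 6521, so a gap to the median gene was bound to appear. Whether it exceeds what such picking gives was not tested.

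In bulk spheroids, made by another protocol, all 10 genes had counts in all 4 lines. Jund stood at 130 CPM in KP1, 112 in KP2, 79.7 in KP3 and 130 in KP5. Jun covered a wider range, with 143, 91.4, 38.2 and 21.8 CPM in that order of lines. Dusp1 had 31.9, 68.2, 47.2 and 14.5 CPM, and Klf6 had 29.7, 39.7, 48.6 and 50.7. Ier2 had 33.0, 25.9, 30.5 and 53.8 CPM and Junb 6.49, 26.8, 15.9 and 22.4. Fos stayed low in bulk too, at 1.04, 1.01, 5.18 and 0.757 CPM, as did Fosb (0.521 to 2.09), Egr1 (3.53 to 6.81) and Ier3 (0.348 to 1.05). With 1 library a line there is no replicate check on these differences.

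Set against the mean of KP1 spheroid captures, the KP1 bulk library held 27.9 times as much Jund and 23.3 times as much Junb. The ratio was 11.7 for Ier2, 9.65 for Fos, 5.14 for Jun, 4.15 for Dusp1, 3.92 for Klf6 and 3.54 for Ier3. The median over 10538 genes with at least 1 CPM in both was 2.61, and the quartiles were 1.02 and 6.14. Jund and Ier2 lay above the upper quartile, and Jun, Dusp1 and Klf6 between the quartiles. Fos, Junb and Ier3 were under 1 CPM in captures and so are outside those genes, and the Fos ratio rests on 13 counts in 1 capture. Protocol and material cannot be told apart here. Jun, Junb, Jund and Ier2 are annotated with a single exon, and Fos, Klf6 and Dusp1 with 4.

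**Figure D5:**
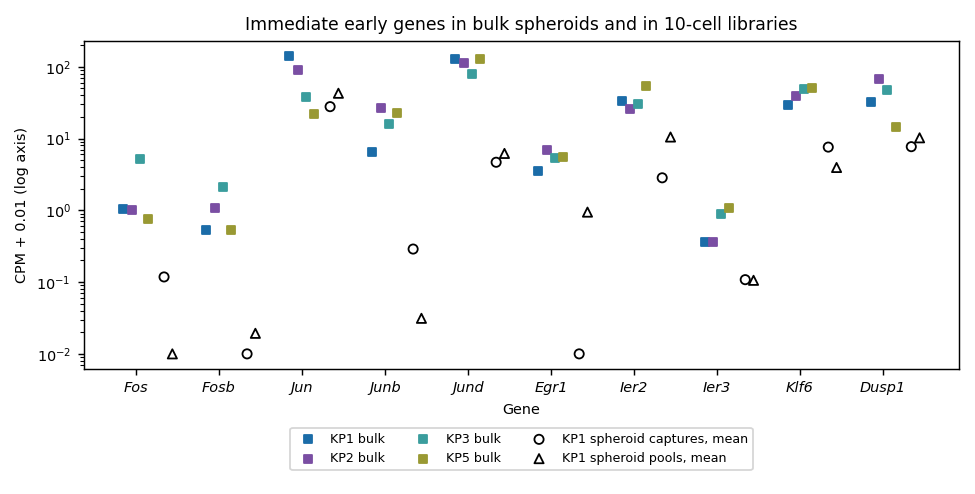
Level of each of the 10 genes, as CPM + 0.01 on a log axis, in the 4 bulk spheroid libraries (squares, 1 library each) and as the mean over KP1 spheroid captures (open circles) and pools (open triangles). Jund is at 79.7 to 130 CPM in bulk and at 4.66 CPM in the capture mean, the widest gap among genes with counts in most captures.

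The wider response was described with lists fixed beside the 10 genes. Of 49 other early response genes, 13 passed the filter in nude liver against spheroid captures: 1 rose and 5 fell, with a list median of -1.09 beside -0.04 over all genes, of which 34.1% were called. Those that fell included Id3, which codes for an inhibitor of helix-loop-helix factors and went from 202 ± 119 CPM in spheroids to 6.76 ± 21.1 in nude livers (log2 -5.13, SE 0.71, adjusted p = 1.57e-08, edgeR), Id2 (-2.72, adjusted p = 1.62e-06) and the antiproliferative gene Btg2 (-2.42, adjusted p = 4.88e-06). In F1 liver captures 0 of 11 rose and 3 fell, among them Id3 (-4.60, adjusted p = 1.90e-06), with a list median of -0.17 beside 0.22 and 12.6% of all genes called. Nude liver pools had 1 riser and 4 that fell of 13 tested, Id3 included (-7.32, adjusted p = 1.53e-10), with 25.6% of all genes called. In F1 liver pools 1 rose and 1 fell of 11 (11.6% of all genes), and Id3, at -2.89 (adjusted p = 0.0651) with counts in 3 of 24 pools, was not called. In RPC against KP1, 2 of 12 rose and 5 fell (21.9% of all genes were called): Id1 rose (2.37, adjusted p = 7.59e-05) while Id3 (-2.45, adjusted p = 1.72e-06) and Id2 (-2.70, adjusted p = 1.59e-05) fell. F1 against nude liver captures had 2 of 8 higher, Btg2 (2.31, adjusted p = 0.00101) and Ier5 (2.14, adjusted p = 0.00839), and none lower, with 19.2% of all genes called.

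Of 31 kinases and factors upstream of these genes, 22 were tested in nude liver against spheroid captures, and 6 rose and 2 fell, near the 34.1% called over all genes. Mapk14, the stress kinase p38 alpha, went from 110 ± 78.0 to 449 ± 251 CPM (log2 1.91, SE 0.34, adjusted p = 7.33e-06, edgeR), and it rose in F1 liver captures (1.41, adjusted p = 0.00731) and nude liver pools (2.06, adjusted p = 3.68e-06) but was not called in F1 liver pools (1.02, adjusted p = 0.265). In F1 liver captures 2 of 22 rose and 0 fell (12.6% of all genes), and in RPC 1 rose and 1 fell of 23 (21.9% of all genes). Of 12 heat shock genes, 9 were tested in each comparison of captures. In nude livers 3 rose and 3 fell, beside 34.1% of all genes: Hsp90aa1 (1.92, adjusted p = 7.71e-13) and Hsp90ab1 (1.62, adjusted p = 1.49e-11) were higher, and Hspe1 (-1.51, adjusted p = 3.04e-05) and Dnaja1 (-1.57, adjusted p = 9.55e-05) lower. F1 liver against spheroid captures had 3 higher and 0 lower of 9 (12.6% of all genes), Hsp90aa1 (1.00, adjusted p = 0.000133) and Hsp90ab1 (0.88, adjusted p = 0.000288) among them. RPC had 3 higher and 1 lower (21.9% of all genes), and F1 against nude liver captures 5 higher and 2 lower (19.2% of all genes), with Hspe1 (1.53, adjusted p = 9.63e-05) and Hspa8 (1.06, adjusted p = 0.000104) higher and Hsp90aa1 (-0.90, adjusted p = 0.000536) and Hsp90ab1 (-0.71, adjusted p = 0.0035) lower. Hepatocytes and other host cells, whose markers were present in the liver libraries, also express Mapk14 and the heat shock genes. In nude liver against spheroid captures, Hsp90aa1 and Hsp90ab1 were called the same way in 11 of 11 alternatives, Mapk14 and Hspe1 in 10 and Dnaja1 in 9. These include the hepatocyte score, which cannot separate host RNA from setting there. The part of host cells was not tested otherwise.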

How the data were processed

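The deposited table holds expected counts per gene and library, 89.3% of them whole numbers. RSEM and Bowtie2, and the builds GRCm38 and GRCh38.p12, are named in the submitters' processing notes, with no role, and the annotation release is not given in the sources used here. Coordinates are the table's, on GRCm38. Counts were rounded to whole numbers, 92 ERCC rows were left out of library sizes and tests, and CPM was computed over genes. Groups come from the labels, and all 199 libraries were used.

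Levels were compared over all genes with edgeR 4.0.16 in R 4.3.3 (TMM, filterByExpr, robust quasi-likelihood F test), called at an adjusted p under 0.05. The SE is the log2 fold change divided by the square root of F. Spread was tested with limma 3.58.1 where the mean reached 5 CPM. Correlations used log2(CPM + 1) with 100000 permutations (scipy 1.17.1). The fits were tested on simulated data. All 10 genes are described, and other genes are named from the called genes of a list, at most 4 per list and comparison in order of adjusted p (Id3 and Mapk14 also where they were not called), or by likeness to a described gene. The genes and lists were chosen with earlier results of these data known. Libraries that share a number were not paired (see the closing section). The alternatives were DESeq2 1.42.0, limma-voom, RLE scaling, no filter, thinned counts, a replicate block, and subsets of libraries.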

Additional observations from a re-analysis of the deposited data

How the results depend on the processing

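Over 149 results, 633 of 743 alternative values kept their direction and their side of the threshold or stayed near their value. Jun stayed lower in liver than in spheroids, captures and pools, under every alternative that gave a value; its adjusted p crossed 0.05 in both directions. Fos, Fosb, Junb, Egr1 and Ier3 passed the filter on low counts in no comparison, and read depth, input of 10 cells and low expression cannot be told apart as the reason; calls of them with no filter rest on few libraries (Egr1 in nude liver captures, 4.31, on 2 of 33). The subsets by 100 CPM of Rpl19-ps11, the libraries with shared numbers without the block, the fits that left out single libraries, and TGACATCA were chosen after seeing the data.

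Members called, higher or lower, changed as follows. In nude liver against spheroid captures 1 was lower, which became 3 higher and 3 lower with no filter (9 tested), 2 lower with limma-voom, and 0 with shared numbers only, with either set of spheroid libraries by spike-in share, or with the hepatocyte covariate. In F1 against spheroid captures 0 became 1 higher with no filter and 1 lower with limma-voom. In F1 against nude liver captures the 1 higher became 0 with limma-voom, thinned counts, the replicate block or shared numbers (Jund was not tested in these 3), or F1 libraries with Rpl19-ps11 at up to 200 or 100 CPM, and no filter gave 1 lower. In RPC 0 became 1 higher with no filter, DESeq2 or limma-voom, and 1 lower with shared numbers (Jund, -1.29). In nude against spheroid pools 1 lower became 2 with RLE scaling, DESeq2, limma-voom, the replicate block and no filter (with 2 higher), and 0 without libraries over 10% spike-in, with shared numbers, or with spheroid pools of at least 0.1% spike-in. In F1 against spheroid pools 0 became 1 lower with RLE scaling, DESeq2, thinned counts and the replicate block, 2 with limma-voom, and 3 higher and 2 lower with no filter. F1 against nude pools gave 3 higher and 2 lower with no filter. The spread difference of F1 minus spheroid had 1 lower (Klf6) with deviations from the mean.

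Signs turned for values that were not called in the reported fits; 1 was called with its turned sign (Dusp1 with limma-voom). Jun in F1 against nude captures was -1.51 and -1.34 in the F1 libraries with Rpl19-ps11 at up to 200 and 100 CPM. Jund in nude against spheroid pools was -0.66 with DESeq2, -0.88 with limma-voom, -1.07 with the replicate block, -0.79 with shared numbers and -0.33 without nude pool 37 (F1 against nude pools became 0.96). In nude against spheroid pools the median over all genes moved from 0.16 to -0.32 with DESeq2, -1.09 with limma-voom and -0.86 with the block. In F1 against spheroid pools, Dusp1 was -0.14 with DESeq2, -1.83 with limma-voom (adjusted p = 0.0499), -2.03 with the replicate block and -0.22 at up to 200 CPM of Rpl19-ps11, Jund was -0.36 with limma-voom and -0.39 with the block, and Klf6 was -0.27 with limma-voom. The median over all genes there moved from 0.46 to -0.13 with DESeq2, -1.45 with limma-voom and -1.64 with the block. Jund in F1 against nude pools was -0.092 at up to 100 CPM of Rpl19-ps11. For spread, Jund in spheroids was -0.025 with a pseudocount of 5 CPM and -0.063 with the replicate block. Ier2 was -0.075 (pseudocount) and -0.23 (deviations from the mean) in nude livers, and 0.010 in F1 captures over 200 CPM of Rpl19-ps11. The Dusp1 difference, nude liver minus spheroid, was -0.016 with deviations from the mean and -0.075 with spheroids under 0.1% spike-in. The median rho over pairs turned to -0.12 in spheroid pools and -0.017 in spheroid captures with at least 0.1% spike-in, to -0.088 in spheroid captures and -0.16 in nude liver captures with thinned counts, to -0.061 in nude liver captures with depth held, and to 0.0076 in F1 captures over 200 CPM of Rpl19-ps11. It kept its sign but moved from -0.04 to -0.22 in F1 captures at up to 200 CPM. The cause of these changes was not tested.

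Libraries share only a number across groups: the median correlation of same-numbered libraries was 0.00 in nude liver against spheroid captures (27 pairs, -0.24 to 0.08), and 1 of the 27 matched its own number best. In the other comparisons the medians lay between -0.02 and 0.01. The highest single pair reached 0.45, in RPC against KP1 spheroid captures, where 2 of 24 pairs were over 0.1. With the replicate block Jun was -2.99 in nude liver against spheroid captures (adjusted p = 0.0159, edgeR), and -3.78 and -5.64 in the nude and F1 pools. The medians over all genes in these fits were -0.08, -0.86 and -1.64. RLE scaling moved the median over all genes by over 0.1 in RPC (from 0.01 to 0.16), nude pools (from 0.16 to -0.06) and F1 pools (from 0.46 to 0.32) against spheroids. The shifts were larger with limma-voom, to 0.44 in RPC, -1.09 in nude pools and -1.45 in F1 pools. The replicate block moved it to 0.41 in RPC. In F1 against spheroid captures it went from 0.22 to -0.44 with limma-voom and -0.44 with the block.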
